A study of Macaca fascicularis with 132 samples.

Results

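The genes described here are those whose RNA dipped by 2 h of culture without added cytokine, was back near its starting level at 6 h and at 24 h, and was at nearly the same level in IL-15 cultures at each time. They are 8 of the 38550 genes in the count table, and of the 10811 that averaged at least 5 CPM (counts scaled to equal library totals) in 1 of the 6 control groups. RNA was counted in peripheral blood mononuclear cells (PBMCs, the lymphocytes, natural killer cells, monocytes and dendritic cells of blood) of 4 cynomolgus macaques (Macaca fascicularis), females 38142 and 38155 and males 38147 and 38157. IL-15 cultures received 40 ng/ml of heterodimeric IL-15, the cytokine joined to the alpha chain of its receptor, and were sampled at 2, 6, 12, 24 and 48 h. Control cultures received none and were sampled at 0, 2, 6, 12, 24 and 48 h. Each animal gave 3 numbered libraries in each of these 11 groups, and their counts were summed, so that a value below stands for 1 animal unless it is said to be a library. Nothing in the labels says whether the 3 libraries were separate cultures. The main fits use these sums and include a term for the animal. Their p-values therefore rest on how far changes within an animal varied between animals, with that spread estimated over all 11 groups.

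An mRNA level is set by synthesis and by decay, and messages that decay quickly can change within hours when blood cells are moved into culture. IL-15 is a cytokine that acts through a receptor shared in part with IL-2 and is known for sustaining natural killer cells and memory CD8+ T cells. PBMCs are a mixture, and in bulk RNA fewer cells of a type and less RNA per cell cannot be told apart. The count table gives Ensembl IDs without symbols, and 0 of them could be matched to a symbol in the reference used here. The PBMC label could therefore not be checked against marker genes, and no function can be given to the members. Their identity is given by 4 IDs, and the members are otherwise numbered 1 to 8 by the depth of the mean dip in log2(CPM + 1), deepest first.

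The members were chosen from these same measurements, on the scale log2(CPM + 1) averaged over the 4 animals. The change of control cultures relative to 0 h, called c, had to be -1.5 or less at 2 h and within 0.5 of 0 at 6 h and at 24 h. The IL-15 difference, called e and taken as IL-15 minus control at the same time, had to be within 0.3 of 0 at all 5 times. Those values are given below as a description, with no test. The member nearest the dip limit had a c of -1.53 at 2 h, and the nearest gene outside it stood at -1.48. The member nearest the limit at 6 h had an absolute c of 0.48, and the only gene that missed this limit alone had 0.71. At 24 h the member nearest the limit had 0.49 and the nearest gene outside 0.54. The largest absolute IL-15 difference of a member was 0.25, and the nearest gene that missed this limit alone had 0.31. The IL-15 limit alone kept out 38 genes, and the limit at 24 h alone kept out 5.

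The dips of the 8 members were of similar size. Mean c at 2 h ran from -1.74 to -1.53 with a median of -1.66, while the median over the 10811 genes was -0.08 and the deepest value among them -4.54. Mean levels at 2 h were 17.1% of the 0 h mean for member 6 and 26.4% to 34.2% for the others. By 6 h the levels of the members were 70.6% to 118.6% of their 0 h means, and c had a median of -0.11 (all genes 0.20).

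**Figure D1:**
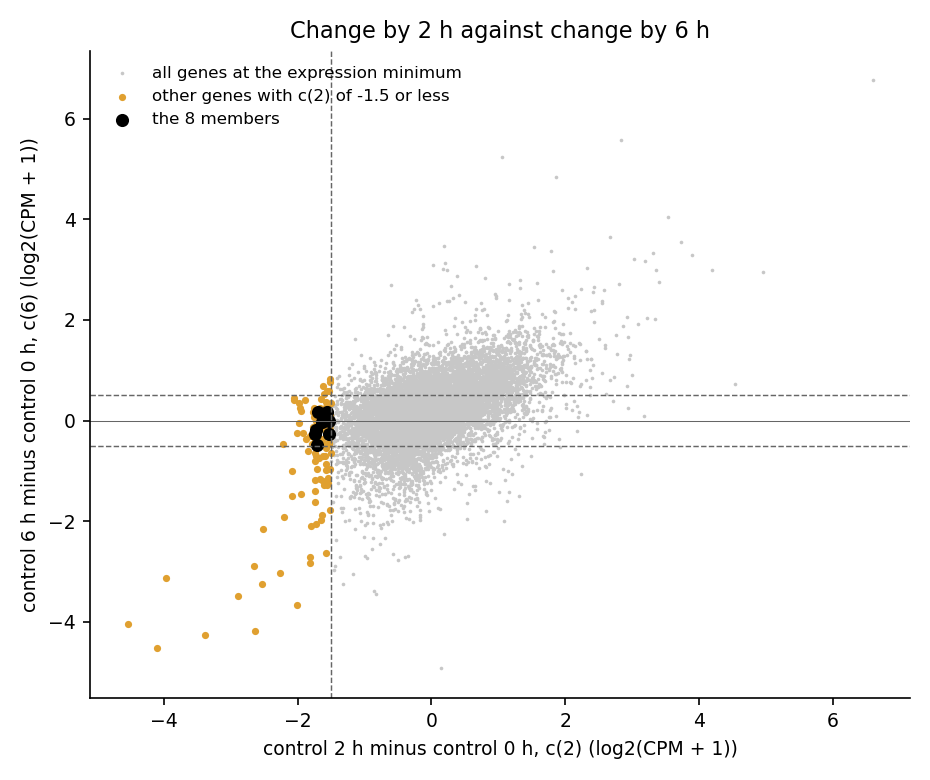
Change of control cultures relative to 0 h at 2 h (x axis) against the change at 6 h (y axis), both in log2(CPM + 1) averaged over 4 animals, for 10811 genes (grey), the other genes with a change of -1.5 or less at 2 h (orange) and the 8 members (black). The members sit between -1.74 and -1.53 on the x axis and between -0.48 and 0.18 on the y axis, inside the limits that chose them.

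Member 1, ENSMFAG00000001313, had the deepest mean dip in log2(CPM + 1). At 2 h it stood at 22.96, 18.7, 24.3 and 27.2 CPM in IL-15 cultures of animals 38142, 38147, 38155 and 38157. Control cultures of the same animals held 18.2, 17.4, 23.1 and 28.1 CPM at 2 h, against 46.6, 44.2, 118.4 and 119.7 CPM at 0 h. Both 2 h groups lay below the 0 h group without overlap, and at 0 h animals 38155 and 38157 stood far above the other 2. The dip was accordingly uneven, at -2.31 in animal 38155 and -2.05 in 38157, and at -1.31 in 38142 and -1.30 in 38147. The difference between animals was smaller afterwards: the highest was 1.29 times the lowest in control cultures at 6 h, against 2.71 times at 0 h. Control means were 61.2 ± 7.06 CPM at 6 h (SD, n = 4 animals) and 76.7 ± 15.7 CPM at 12 h and 71.9 ± 11.8 CPM at 48 h. IL-15 means were 61.1 ± 1.80 CPM at 6 h and between 70.3 and 79.4 CPM at 12 to 48 h.

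Member 2, ENSMFAG00000033148, dipped more evenly. At 2 h it was at 17.8, 12.0, 15.4 and 16.4 CPM in IL-15 cultures of the 4 animals in the same order. Control cultures held 17.2, 12.4, 17.1 and 13.99 CPM at 2 h, against 60.5, 46.99, 51.6 and 48.9 CPM at 0 h. Every animal at 2 h was below every animal at 0 h, and the dip ranged from -1.84 to -1.54. IL-15 means were 51.8 ± 11.5 CPM at 6 h, 53.8 ± 4.07 CPM at 12 h, 59.4 ± 14.3 CPM at 24 h and 60.9 ± 3.84 CPM at 48 h. Control means were 45.9 ± 7.26 CPM at 6 h, 56.6 CPM at 12 h, 56.9 ± 3.40 CPM at 24 h and 66.1 ± 8.32 CPM at 48 h. Animal 38147 was the lowest of the 4 in control cultures at every time but 48 h.

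Member 5, ENSMFAG00000002826, had a shallower mean c of -1.64 at 2 h. Its IL-15 cultures held 3.93, 3.27, 2.46 and 3.79 CPM at 2 h. Control cultures held 3.67, 2.73, 3.15 and 3.10 CPM at 2 h, against 11.7, 11.3, 10.8 and 14.1 CPM at 0 h. The 2 h and 0 h groups lay well apart, with 195 to 306 counts per animal behind the control values at 2 h. Control means were 11.7 ± 1.34 CPM at 6 h, 13.9 ± 1.35 CPM at 12 h, 17.2 ± 2.35 CPM at 24 h and 16.6 ± 3.34 CPM at 48 h. The 24 h mean was 144% of the 0 h mean, and c at 24 h, 0.49, lay just within the limit. IL-15 means at 6 to 48 h were between 12.7 and 17.2 CPM.

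Member 6, ENSMFAG00000035447, met the expression minimum through its later cultures, with a highest control mean of 7.51 CPM at 48 h. At 2 h it was at 0.29, 1.63, 1.15 and 0.86 CPM in IL-15 cultures. Control cultures held 0.10, 0.86, 1.02 and 0.83 CPM at 2 h, from 8 to 68 counts per animal, against 1.89, 4.99, 5.70 and 3.87 CPM at 0 h. Animal 38142 was the lowest of the 4 in all 11 groups, and averaged over the groups the animals spanned 1.36 on the log2(CPM + 1) scale. The added 1 shrinks changes at such levels: edgeR's log2 fold change of 2 h over 0 h was -2.596 ± 0.211 (SE) for this gene, where c was -1.56. For the other 7 members edgeR gave -1.86 to -1.48.

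**Figure D2:**
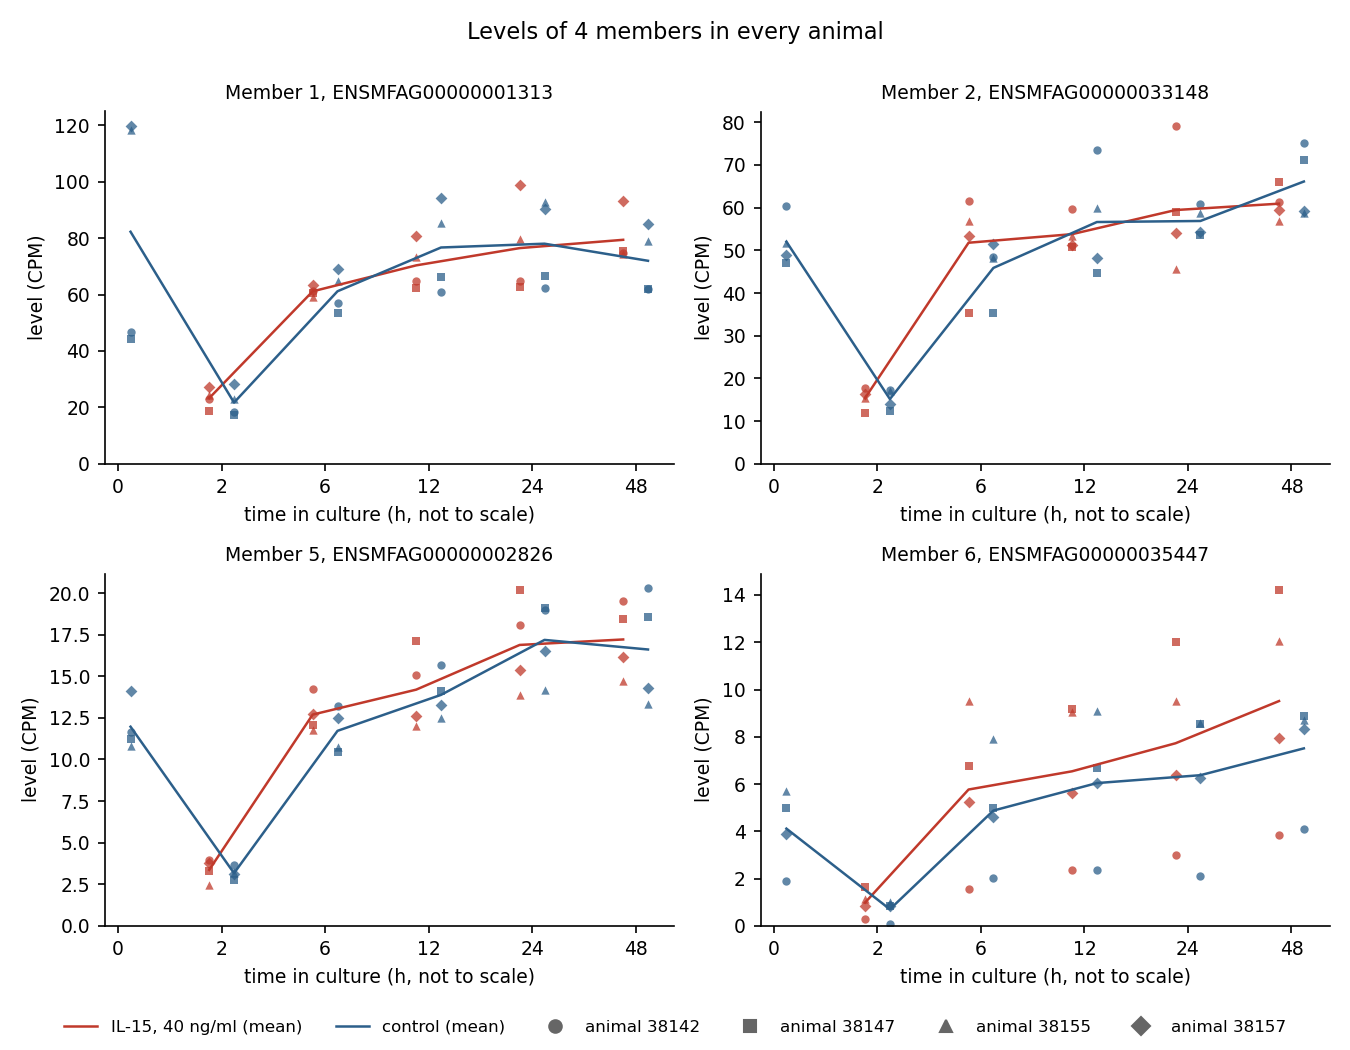
Levels in CPM (y axis, starting at 0) of members 1, 2, 5 and 6 by time in culture (x axis, categories in h), with IL-15 cultures in red and control cultures in blue; symbols are the 4 animals and lines the means. In all 4 panels both kinds of culture are low at 2 h, and the control means at 6 h are at least 74.4% of the 0 h mean.

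The other 4 members are given by their ranges. Member 3 had 5.24 to 10.5 CPM in control cultures at 2 h, against 20.4 to 40.2 CPM at 0 h, and had the lowest c of the members at 6 h, -0.48. Member 4 had little spread between animals, with 16.3 to 17.7 CPM at 2 h, against 53.97 to 64.004 CPM at 0 h. Member 7 had 33.5 to 103.9 CPM at 2 h, against 104.4 to 305 CPM at 0 h. Its ranges nearly met, yet the dip differed little between animals, from -1.61 to -1.47. Member 8 had 24.1 to 32.9 CPM at 2 h, against 72.8 to 90.4 CPM at 0 h, with dips from -1.58 to -1.43. The spread of the dip between animals was thus smallest for members 7 and 8 (SD 0.06 and 0.07) and widest for member 1 (SD 0.52).

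In each of the 32 pairs of a member and an animal the control level was lower at 2 h than at 0 h. The change was -1.5 or less in 24 of the 32 pairs, and for 2 members in all 4 animals. The sums at 2 h all lay below those at 0 h for 8 of 8 members, as they did for 21.6% of the 10811 genes. Over all genes tested, 52.9% of 18197 were called at 2 h against 0 h, 28.4% lower and 24.5% higher (edgeR quasi-likelihood test, adjusted p under 0.05). The members were chosen for this contrast, and nothing is read from their counts. In single libraries, all 12 at 2 h lay below all 12 at 0 h for 6 of the 8 members, and for 10.7% of the 10811 genes. The deepest dip was in animal 38157 for 3 members, in 38147 and in 38155 for 2 each and in 38142 for 1.

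Column names divide the libraries into 6 sets by tokens that the labels do not explain. In the set with 0 h and 2 h control libraries of 3 animals, the change at 2 h paired by animal ran from -2.05 to -1.47 over the members. In 2 other sets 1 animal each gave a pair, with changes from -2.02 to -1.26 and from -2.05 to -1.30. Without pairing by animal, the lowest and highest changes of a member in the 4 sets with both times were -2.48 and -0.74. The remaining 2 sets lack a control library at 0 h and give no value.

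**Figure D3:**
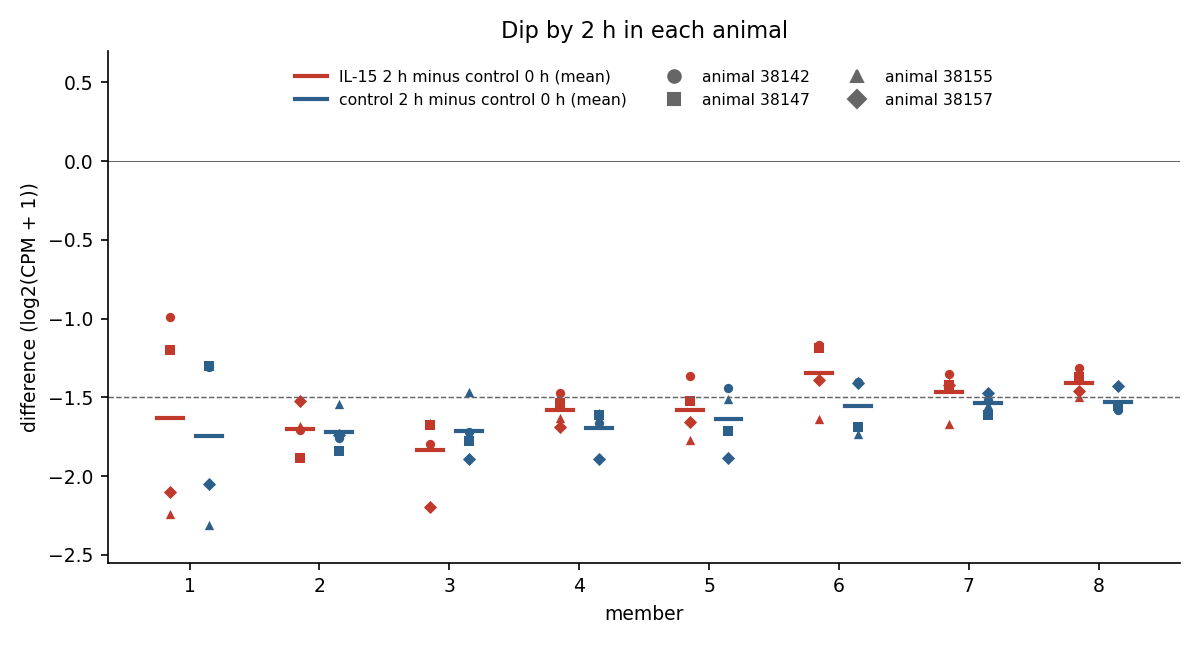
Difference relative to control cultures at 0 h in log2(CPM + 1) (y axis) of IL-15 cultures at 2 h (red) and control cultures at 2 h (blue) for members 1 to 8 (x axis); symbols are the 4 animals, bars their means and the dashed line the limit of -1.5. The widest spread is that of member 1, whose control dips run from -2.31 to -1.30.

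IL-15 cultures dipped along with control cultures, which the limits on c and e nearly fix. Relative to control cultures at 0 h, IL-15 cultures at 2 h stood at -1.83 (member 3) to -1.35 (member 6). The IL-15 difference at 2 h was above 0 for 7 of the 8 members, with a median of 0.09 (all genes 0.02), and at 6 h for 6 of 8 (median 0.05, all genes -0.03). At 12 h and at 24 h it was above 0 for 2 of 8 on the CPM scale, with medians of -0.08 and -0.03 (all genes -0.15 and -0.14). These signs flipped with the scaling: with TMM (trimmed mean of M values, which aligns the bulk of genes between samples) the difference was above 0 for 6 of 8 members at 12 h and for 7 of 8 at 24 h. At 48 h it was above 0 for 5 of 8 on either scale. In CPM the difference was above 0 for 6165 of the 10811 genes at 2 h and for 4746 at 6 h. Later it was above 0 for 3513 genes at 12 h, 3823 genes at 24 h and 4591 genes at 48 h. Member 6 had a positive difference at all 5 times, 0.07 to 0.24, and member 3 a negative one at all 5, -0.25 to -0.07, on the CPM scale; with TMM member 3 had 0.10 at 24 h.

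By the rule, the other genes with a dip of this size missed the limits on their later course or on the IL-15 difference. Beside the 8 members, 38 genes had c of -1.5 or less at 2 h and returned within the same limits but had an IL-15 difference of at least 0.3 at some time. At the time of its largest absolute value this difference was negative for 33 of the 38 and positive for 5 in CPM, and negative for 29 and positive for 9 with TMM. That time was 2 h for 1 gene, 12 h for 16, 24 h for 14 and 48 h for 7. For 9 of the 38 the absolute difference in CPM reached 0.3 at 1 time only. The median difference of the 38 genes was -0.37 at 12 h and -0.38 at 24 h in CPM (all genes -0.15 and -0.14), and -0.19 and -0.21 with TMM (all genes 0.03 and 0.02). With TMM, 24 of the 38 still had an absolute difference of at least 0.3 at some time. Another 12 genes dipped and differed little with IL-15 but lay outside the limits at 6 h or at 24 h. At 6 h 5 of them were below the limits and 2 above, and at 24 h 4 were below and 7 above. Another 57 genes dipped and met neither condition. The mirror image, a c of 1.5 or more at 2 h with the other limits kept, was found for 3 genes.

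**Figure D4:**
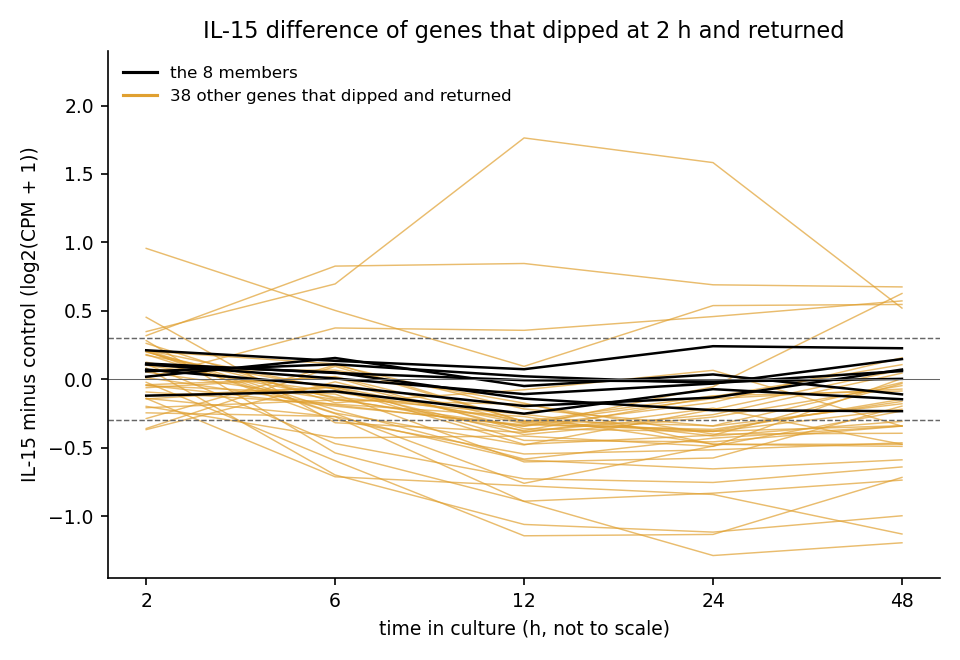
IL-15 minus control in log2(CPM + 1) (y axis) at 2 to 48 h (x axis, categories in h) for the 8 members (black) and for the 38 other genes that dipped at 2 h and returned (orange), each line 1 gene averaged over 4 animals. The members stay within the limits of 0.3 that chose them, while the orange lines have medians of -0.37 at 12 h and -0.38 at 24 h.

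The changes of control cultures at 12 and 48 h relative to 0 h were not themselves limited by the rule and were tested. They are not independent of it: both share the 0 h sums with it, and the 12 and 48 h control cultures entered it through the IL-15 limits and the expression minimum. The dip limit favours genes with high 0 h sums. At 6 and 24 h c was held near 0 in CPM, where all genes had medians of 0.20 and 0.33. Lower calls with TMM were therefore favoured by the choice of members, and nothing is read from such calls. At 12 h against 0 h, 3 of 8 members were lower and 0 higher, where 51.2% of all genes tested were called, 24.9% lower and 26.4% higher (edgeR quasi-likelihood test with TMM, adjusted p under 0.05, n = 4 animals). Of the 10811 genes at the expression minimum, 33.04% were called higher there and 29.96% lower. At an unadjusted p under 0.05, 5 members passed, and DESeq2 called 1 higher and 3 lower. The median log2 fold change of the members was -0.21, against 0.01 over all genes.

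Member 7 had 135.9, 108.2, 229 and 120.2 CPM at 12 h, against 131.4, 104.4, 305 and 165 CPM at 0 h. On the CPM scale it was thus higher in 2 animals and lower in 2, and with TMM its log2 fold change was -0.46 ± 0.11 (SE; edgeR adjusted p = 0.00093). Member 8 had 78.3, 80.8, 81.1 and 90.5 CPM at 12 h, against 86.1, 72.8, 86.9 and 90.4 CPM at 0 h. These levels overlap, with a c of -0.02 in CPM and -0.28 with TMM, and edgeR gave -0.28 ± 0.06 (adjusted p = 0.00038). Member 3 had -0.40 ± 0.14 (edgeR adjusted p = 0.015), a call lost without animal 38157 (-0.21, adjusted p = 0.314). Member 1 did not pass, at -0.30 ± 0.14 (edgeR adjusted p = 0.0803), but passed without 38142 and without 38147, at -0.43 each. It was at -0.12 without 38155 (edgeR adjusted p = 0.553) and at -0.18 without 38157 (adjusted p = 0.410).

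The scale sets what counts as a return to the starting level. In CPM the median c over the 10811 genes was 0.20, 0.26, 0.33 and 0.33 at 6, 12, 24 and 48 h, and with TMM it was 0.03, 0.02, 0.02 and 0.04. The members' median c was -0.11, 0.07, 0.13 and 0.21 in CPM, and -0.28, -0.19, -0.19 and -0.10 with TMM. At 2 h both scales gave a similar median, -1.66 in CPM and -1.62 with TMM. With the rule applied to TMM-scaled values 16 genes were members, of which 4 (members 1, 2, 4 and 5) were among the 8. Of the 4 that dropped out, members 7 and 8 had a dip short of the limit, at -1.47 and -1.46, member 3 missed the limit at 6 h and member 6 the IL-15 limit.

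At 48 h against 0 h, 1 member was called higher (member 6) and 2 lower, where 59.8% of all genes tested were called, 32.8% higher and 26.9% lower (edgeR, adjusted p under 0.05). Of the 10811 genes at the expression minimum, 37.8% were called higher and 32.6% lower. The members' median log2 fold change was -0.10, against 0.07 over all genes tested. Member 6, ENSMFAG00000035447, had 4.12, 8.87, 8.71 and 8.34 CPM at 48 h, against 1.89, 4.99, 5.70 and 3.87 CPM at 0 h. This gene met the minimum of 5 CPM through its 12, 24 and 48 h control groups alone, so a higher level at 48 h than at 0 h was favoured by the choice of members. Its log2 fold change, 0.63 ± 0.19 (SE), is therefore given as a description, and nothing is read from its call, which was lost without animal 38157 (0.54). Member 8 had 77.7, 69.4, 78.4 and 80.1 CPM at 48 h, against 86.1, 72.8, 86.9 and 90.4 CPM at 0 h. In CPM it was lower in 4 of 4 animals, and its c was -0.13 in CPM and -0.44 with TMM. With TMM edgeR gave -0.45 ± 0.06 (adjusted p = 2.2e-07), and the gene was called in all 14 alternatives.

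Member 1, ENSMFAG00000001313, had 61.8, 62.01, 78.96 and 84.99 CPM at 48 h, against 46.6, 44.2, 118.4 and 119.7 CPM at 0 h. Animals 38142 and 38147 were thus higher and the other 2 lower. The mean c at 48 h was -0.05 in CPM and -0.36 with TMM. With TMM edgeR called the gene lower, at -0.44 ± 0.14 (SE, adjusted p = 0.00897). The call was lost without 38155 (-0.30, adjusted p = 0.113) and without 38157 (-0.32, adjusted p = 0.116), the animals highest at 0 h. It was also lost with no animal term and with only the groups compared. Members 3 and 7 were not called, at -0.25 (edgeR adjusted p = 0.123) and -0.23 (adjusted p = 0.0806), but member 3 passed without 38147 (-0.42) and member 7 without 38142 (-0.41). Over the 14 alternatives member 3 ran from -0.42 to -0.12 and was called in 4. Member 7 ran from -0.41 to -0.09 and was called in 5. Member 2, ENSMFAG00000033148, had 0.04 ± 0.11 (adjusted p = 0.796), with an approximate 95% interval from -0.18 to 0.26. Member 5, ENSMFAG00000002826, had 0.14 ± 0.10 (adjusted p = 0.246), with an interval from -0.06 to 0.34.

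Steps between later times do not contain the 0 h sums, but the rule held the 6 h and 24 h control means within 0.5 of 0 h and used all 4 groups in the IL-15 limits, so these tests too draw on values it used. At 12 h against 6 h, 0 of 8 members passed in edgeR, where it called 7.60% of all genes (4.20% higher, 3.40% lower), while 2 members passed at an unadjusted p under 0.05 and DESeq2 called 0. The members' log2 fold changes lay between -0.09 and 0.29, with a median of 0.19 (all genes 0.00). At 48 h against 24 h, 0 of 8 passed in edgeR, where it called 3.71% of all genes (2.12% higher, 1.59% lower), while 3 members passed at an unadjusted p under 0.05 and DESeq2 called 0. The log2 fold changes there lay between -0.10 and 0.39, with a median of -0.04 (all genes 0.01).

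**Figure D5:**
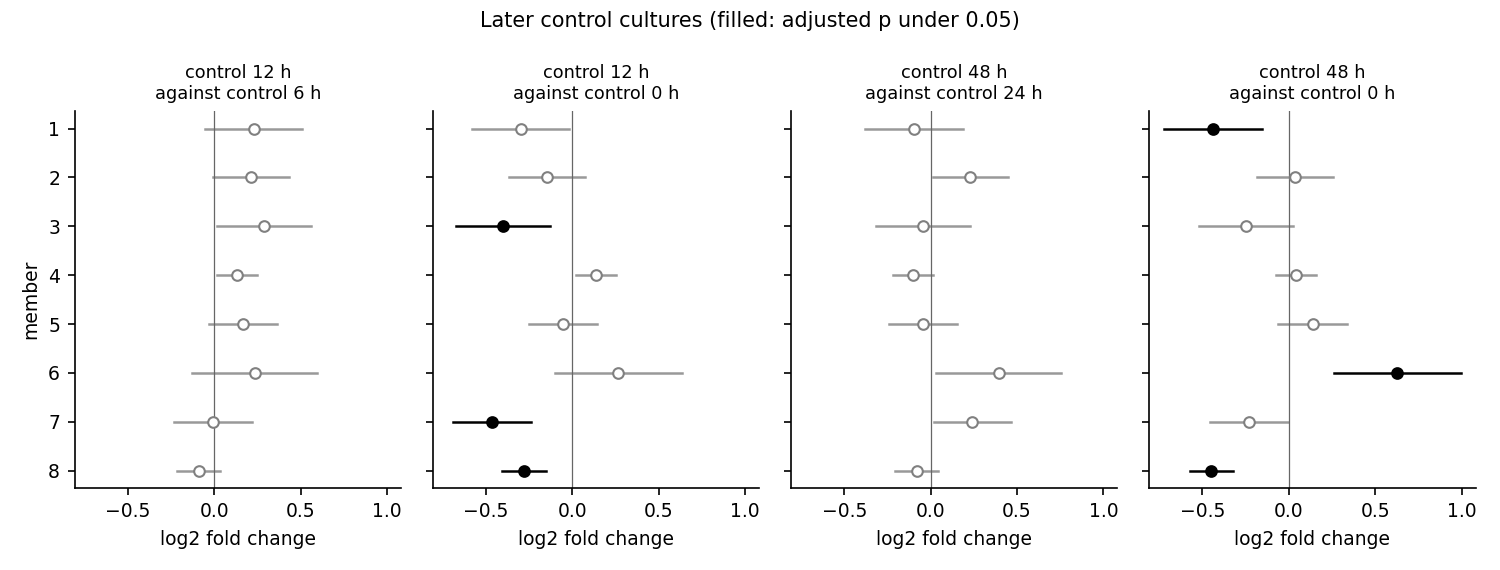
Log2 fold changes with approximate 95% intervals of members 1 to 8 in 4 comparisons of control cultures by edgeR with TMM; filled points have an adjusted p under 0.05. Filled points stand in the comparisons with 0 h alone, for members 3, 7 and 8 at 12 h and for members 1, 6 and 8 at 48 h. That of member 6 is a description, since this gene met the expression minimum through its later cultures. The lower ones were favoured by the limits on c.

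Values of the other genes that dipped are set beside those of the members without a test of the difference. At 12 h against 0 h, 33.04% of the 10811 genes were higher and 29.96% lower. The members had a median log2 fold change of -0.21 there, with 0 higher and 3 lower. The 38 that returned but differed with IL-15 had -0.26, with 1 higher and 18 lower, and the 12 that did not return had 0.06, with 3 higher and 5 lower. At 48 h against 0 h, 37.8% of the 10811 genes were higher and 32.6% lower, and the members had a median of -0.10, with 1 higher and 2 lower. The 38 had -0.32, with 4 higher and 20 lower, and the 12 had 0.29, with 7 higher and 5 lower.

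Females and males were compared for the size of the change at 2 h relative to 0 h, with 2 animals of each sex. In edgeR, 0 of 18197 genes were called (0.00%), 988 passed an unadjusted p under 0.05, and DESeq2 called 2. Of the members 0 passed, adjusted or not, in edgeR or in DESeq2. The difference, females minus males, lay between -0.71 ± 0.43 (SE; member 6) and 0.36 ± 0.22 (member 5) on the log2 scale. For member 6 the approximate 95% interval ran from -1.56 to 0.14, and for member 4, with the smallest SE, from -0.13 to 0.32. Single animals moved the value of member 6: without 38155 it was -1.89, with an unadjusted edgeR p of 0.0036 (adjusted p = 0.577), and without 38142 it was -0.19. That of member 4 lay between -0.02 and 0.21 on leaving out an animal. Sex cannot be told apart from other differences between these animals.

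Depth was 16423972 to 87944372 counts per library and 54376963 to 126025607 per sum. At least 195 counts stood behind each sum of a member other than member 6, where the lowest sum held 8. Of the 3 libraries that lay far from their sister libraries, 1 was of control cultures at 2 h (animal 38157), 1 of control cultures at 48 h (38142) and 1 of IL-15 cultures at 24 h (38147). Their part in the results is given by the values without them. The rule then gave 7 genes, and at 12 h against 0 h 1 member was called higher.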

How the data were processed

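RNA came from a Qiagen RNeasy Mini kit and mRNA libraries from a KAPA HyperPrep kit, per the labels' protocols. The authors deposited whole-number counts per gene for 132 libraries, in a cynomolgus table (used here) and a rhesus table (used as an alternative); 0 columns lacked a sample. The counts came with aligner, counter, genome build and annotation not given in the sources used here. In GEO the design text speaks of 6 animals; those beyond the 4 given are not analysed here.

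Counts of the 3 libraries per animal and group were summed (44 sums) and turned into CPM. Tests used edgeR 4.0.16 (R 4.3.3) with TMM on the sums of all 11 groups, with group and animal as terms, over the 18197 genes left by its expression filter, with Benjamini-Hochberg adjustment; DESeq2 1.42.0 was an alternative. Tables were handled with Python 3.11.15. Scripts were checked on simulated data. The animal term was kept because sums of the same animal deviated together: all 60 pairs of control sums from 1 animal had a correlation above 0.1, with a median of 0.713. CPM has no length correction, so levels are not compared between genes. Counting error understates the spread, since reads were amplified and carried no stated molecular identifiers.

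The members, lists and tests were chosen with earlier results of these data known. Gene lists and markers need symbols and could not be run. IDs are printed for the 2 members with the deepest dip in log2(CPM + 1) and for the 2 highest at 48 h against 0 h, of which 1 passed the test.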

Additional observations from a re-analysis of the deposited data

Results flagged for a closer look

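In 4 of the 88 sets of 4 animals examined (8 members in 11 groups), 1 animal stood far from the other 3; chance gives about 1 in 20, or 4.4 sets. Each value is the gap to the nearest animal divided by the range of the 4, and it passed Dixon's 95% critical value for 4 samples. Member 1, ENSMFAG00000001313, had 93.01 CPM in animal 38157 in IL-15 cultures at 48 h, with the next animal at 75.5 CPM (0.943). Member 3 had 5.24 CPM in animal 38147 in control cultures at 2 h, with the next at 9.93 CPM (0.896). Member 6, ENSMFAG00000035447, had 4.12 CPM in animal 38142 in control cultures at 48 h, with the next at 8.34 CPM (0.889). Member 7 had 166 CPM in animal 38155 in IL-15 cultures at 12 h, with the next at 115.5 CPM (0.869).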

How the results depend on the processing

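The number of genes that met the rule was 16 with TMM-scaled CPM, 3 with a pseudocount of 4, 44 with a dip limit of 1.2 and 0 with one of 2. Leaving out 1 animal gave 6 to 13, the 13 without 38155. Of the 8 members, 7 were kept without 38147 and 6 without 38142, 38155 or 38157. The median of the animals gave 9 genes, 5 of them among the 8, and a pseudocount of 0.5 gave 7, 6 of them among the 8. The alternatives with single libraries but no replicate block, with column-name tokens as a term, and without the 3 distant libraries were chosen after seeing the data. Whether library numbers pair samples was not settled: of 180 pairs of the same animal and number 88 correlated above 0.1, with a median of 0.09. Pairs of unlike number were not computed. Fitting single libraries with the animal and a replicate block called 1 member higher at 12 h against 0 h, 4 lower at 48 h against 0 h, 2 higher at 48 h against 24 h and 3 higher at 12 h against 6 h, and the fits of single libraries without the block or with tokens gave the same numbers. Of all genes tested, the block called 19.1% at 48 h against 24 h and 24.6% at 12 h against 6 h, in place of 3.71% and 7.60%; without the block these were 19.01% and 24.6%, with tokens 20.6% and 24.97%, and with no animal term 0.231% and 0.687%. The fits of single libraries treat those of 1 animal as separate samples.

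At 12 h against 0 h, DESeq2 and the fit without the 3 distant libraries called 1 member higher, and with no animal term 1 was lower. At 48 h against 0 h, 0 members were higher with no animal term and 0 to 1 on leaving out an animal; 1 was lower with no animal term and with only the groups compared, and 1 to 3 on leaving out an animal. A mean of at least 5 CPM left 7219 calls there, of fewer genes tested. Leaving out an animal gave 1.03% to 3.29% of genes called at 48 h against 24 h and 3.24% to 4.33% at 12 h against 6 h. With only the groups compared, 12 h against 6 h gave 15.7% called, with 1 member higher. For sex, leaving out an animal gave 0 to 1 calls and DESeq2 2.

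Signs turned for values that had not passed. On leaving out an animal, the sex difference of ENSMFAG00000001313 ran from -0.65 to 0.45 (0.091 without 38147 and 0.45 without 38155). The 48 h change of ENSMFAG00000033148 ran from -0.015 to 0.036 on leaving out an animal, and was -0.042 without the 3 distant libraries and -0.0080 with only the groups compared; its sex difference was -0.029 without those libraries. The 12 h change of ENSMFAG00000002826 ran from -0.14 to 0.055 and its 48 h change from -0.0054 to 0.26. Apart from settings that test fewer genes or samples, the cause was not tested.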
